A study of Anas platyrhynchos with 18 samples.

Results

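miR-23b, miR-27b and miR-24 are microRNAs (miRNAs), small RNAs that pair with messenger RNAs and lower their output. The rows described here are those whose name is miR-23b, miR-27b or miR-24, with either arm of the hairpin. A hairpin precursor can release a mature miRNA from its 5′ side (5p) and from its 3′ side (3p), and these names gave 6 mature miRNAs of the 353 with counts: miR-23b-3p, miR-23b-5p, miR-27b-3p, miR-27b-5p, miR-24-3p and miR-24-5p. All 6 had counts in all 17 libraries and passed the filter used for testing, at least 1 CPM (count per 1000000 counts on miRNAs) in at least 2 libraries, which left 252 miRNAs.

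Small RNA was sequenced from skin of white Pekin ducks. By the paper's account the stages run from follicle formation to mature feathers at 10 weeks. Skin was taken on embryonic days 11, 15 and 20 (11EM, 15EM and 20EM), at 1 day of age (1DB) and at 4 and 10 weeks (4WK and 10WK). All birds were of this breed, the labels give no treatment, and the groups are defined by age. Each stage had 3 libraries, except 20EM with 2 because replicate 2 was not used here, so that 8 libraries came from before hatch and 9 from after it. Neither the labels nor the methods say which animals went into a library, and the p-values therefore measure the spread between these libraries.

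In mammals miR-23b, miR-27b and a copy of miR-24 are cut from a shared primary transcript, and members of such a cluster are often measured as a unit. They are best known there for work in vessels, in transforming growth factor-beta signaling and in differentiation: miR-23b rises as human keratinocytes differentiate, miR-27b holds back fat cell formation, and miR-24 lowers regulators of the cell cycle in human cells. In the tables used here the 3 pairs of arms are counted under 3 separate chicken hairpins, 1 for each name. Genome positions in the duck were not analysed here.

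The sequences are shown because the seed, bases 2 to 8, sets which messages a miRNA pairs with, and because reads were assigned to names by sequence. They are the chicken mature sequences under their miRBase names, as listed with the study, written 5′ to 3′ with the seed in capitals.
miR-23b-3p: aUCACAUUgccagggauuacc
miR-27b-3p: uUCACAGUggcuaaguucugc
miR-24-3p: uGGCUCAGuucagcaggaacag
miR-23b-5p: gGGUUCCUggcaugaugauuu
miR-27b-5p: aGAGCUUAgcugauuggugaaca
miR-24-5p: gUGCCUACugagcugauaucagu
The 6 seeds are all different. Those of miR-23b-3p and miR-27b-3p differ by a single substitution, U7G, where base 1 is the 5′ base of miR-23b-3p. None of the other miRNAs among the 354 sequences searched had the seed of a member. Only miR-128-3p held the seed of miR-27b-3p shifted by 1 base.
miR-128-3p: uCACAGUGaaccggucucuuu
The nearest other mature sequence differed from each member at 7 or 8 positions or more, at shifts of up to 2 bases. How many mismatches were allowed between a read and a miRNA is not given in the sources used here.

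miR-27b-3p dominated the set. With a mean of 52005 CPM over the 17 libraries it ranked 6 of 353 miRNAs by level, and it made up between 92.7% and 97.0% of the counts on the 6 members of a library (median 95.6%). The other 3p arms were far below it, with means of 1460 CPM for miR-24-3p (rank 54) and 875 CPM for miR-23b-3p (rank 68). Among the 5p arms, miR-27b-5p had a mean of 397 CPM (rank 83), while miR-24-5p had 2.69 CPM (rank 209) and miR-23b-5p 1.18 CPM (rank 232). Each read covers a whole mature miRNA, so CPM of different miRNAs need no correction for length, although ligation to adapters can differ between sequences. The depth was between 3072942 and 15839714 counts on miRNAs per library, and 3 counts, taken as the floor, correspond to between 0.189 and 0.976 CPM. Together the 6 members took 2.69% ± 0.576 (SD, n = 3) of all counts at 11EM. Their share was 4.95% ± 0.448 (n = 3) at 15EM and 4.66% ± 0.241 (n = 2) on day 20 of the embryo, and after hatch it was 7.0% ± 1.02, 6.12% ± 0.981 and 7.15% ± 0.785 (n = 3 each) in the order of age.

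The level of miR-24-3p climbed through most of the series. At 11EM its 3 libraries held 302, 195 and 303 CPM, at 15EM 944, 948 and 734, and at 20EM 961 and 1071. After hatch it stood at 1540, 1637 and 1737 CPM at 1DB, at 2170, 2349 and 2594 at 4WK, and at 2385, 2736 and 2218 at 10WK. In order of mean level, from 11EM to 10WK, no 2 neighbouring stages overlapped in their libraries except 4WK and 10WK, and every library after hatch was above every library before it. The share of all miRNAs whose neighbouring stages were apart is not given here, for this arm or the others. The mean at 10WK was 9.17 times that at 11EM.

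For miR-23b-3p the 3 libraries of 11EM held 263, 385 and 437 CPM, those of 15EM 596, 524 and 667, and those of 20EM 544 and 484. After hatch the values were 1235, 1064 and 1195 CPM at 1DB, 1158, 1167 and 984 at 4WK, and 1399, 1446 and 1332 at 10WK. These libraries fell into 2 ranges without overlap, the highest before hatch at 667 CPM and the lowest after it at 984 CPM. Within those ranges 15EM overlapped with 20EM and 1DB with 4WK, whereas 11EM was the lowest and 10WK the highest stage, each apart from its neighbour. The mean at 10WK was 3.85 times that at 11EM.

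miR-27b-3p moved by a smaller factor from a much higher level. Its libraries held 19508, 29113 and 29390 CPM at 11EM, 49080, 42481 and 50850 at 15EM, and 46307 and 42990 at 20EM. They held 71547, 55167 and 73600 CPM at 1DB, 67934, 55851 and 48422 at 4WK, and 76396, 62698 and 62759 at 10WK. Only 11EM stood apart from its neighbour in the order of means, and replicate 3 of 4WK lay below the highest library of 15EM. The mean at 10WK was 2.59 times that at 11EM.

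The partner arm miR-27b-5p did not follow this course. It was lowest at 11EM, with 206, 323 and 356 CPM, and highest at 15EM, with 631, 488 and 630 CPM. The libraries of 20EM held 520 and 377 CPM, and those after hatch between 241 CPM (replicate 3 of 4WK) and 416 CPM (replicate 3 of 1DB). All neighbouring stages in its order of means, 11EM, 4WK, 10WK, 1DB, 20EM and 15EM, overlapped, and the mean at 10WK was 1.19 times that at 11EM.

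The other 5p arms were near the limit of these libraries. miR-24-5p rested on 8 to 34 counts per library, between 0.734 CPM in replicate 1 of 11EM and 5.49 CPM in replicate 2 of 10WK. Its stage means went from 1.44 CPM ± 0.817 (SD, n = 3) at 11EM to 3.79 CPM ± 1.61 (n = 3) at 10WK, and every pair of neighbouring stages in order of level overlapped. miR-23b-5p rested on 1 to 25 counts per library and reached at most 1.98 CPM. A single count in replicate 3 of 20EM and in replicate 3 of 4WK put it at 0.250 and 0.285 CPM, with upper Wilson bounds at 95% of 1.42 and 1.61 CPM that cover counting error only.

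**Figure D1:**
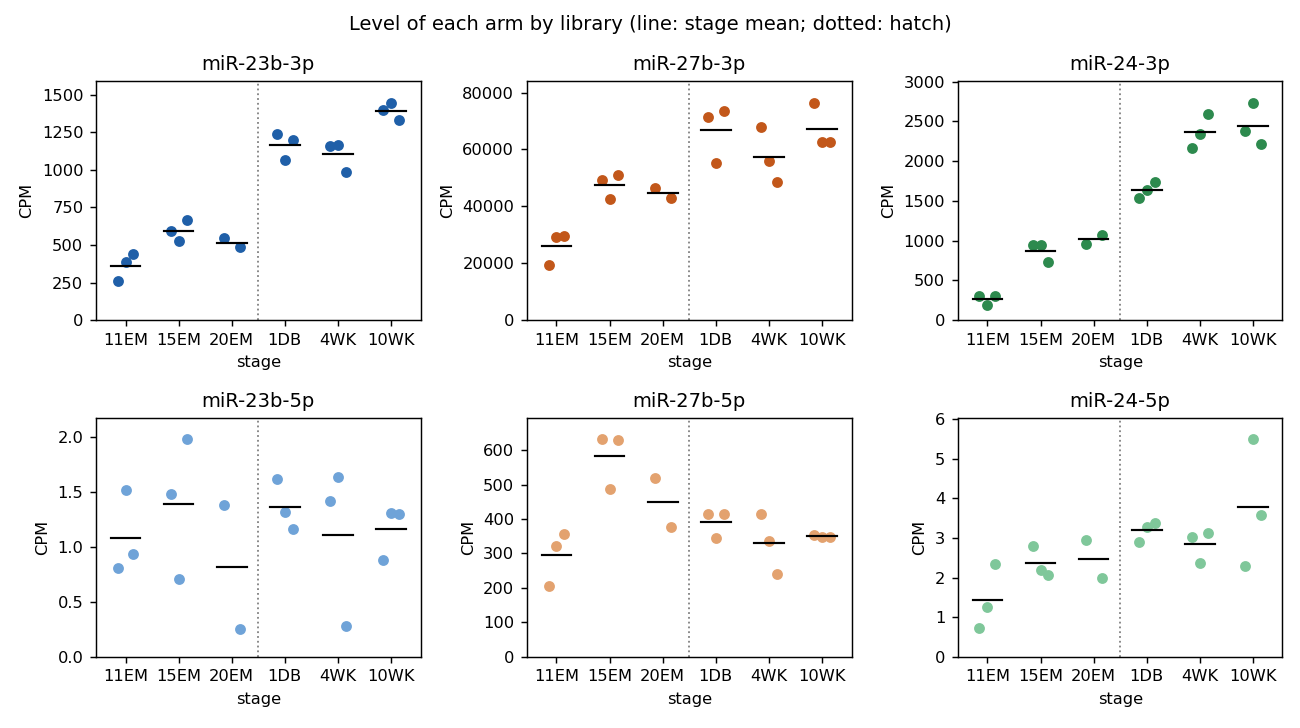
Level of each of the 6 arms in CPM (vertical axes, each from 0) in every library by stage; points are libraries, the line is the stage mean and the dotted line marks hatch. The points of miR-23b-3p after hatch all sit at 984 CPM or more, above the highest before hatch at 667 CPM, whereas those of miR-27b-5p peak at 15EM and overlap across hatch.

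Stages before and after hatch were compared first, as the mean of 1DB, 4WK and 10WK against the mean of 11EM, 15EM and 20EM, by edgeR's quasi-likelihood test of the counts after TMM normalization and Benjamini-Hochberg adjustment over the 252 miRNAs. miR-24-3p rose most, by 1.98 on the log2 scale (SE 0.10, adjusted p = 1.9e-10). miR-23b-3p rose by 1.54 (SE 0.11, adjusted p = 7.9e-09) and miR-27b-3p by 0.94 (SE 0.12, adjusted p = 3.6e-06). miR-24-5p also rose, by 0.86 (SE 0.24, adjusted p = 0.00514), from few counts. So 4 of 6 members were higher after hatch and 0 were lower, the latter also at an unadjusted p under 0.05, with DESeq2 and with limma. Of all 252 miRNAs, 34.1% were called higher and 42.9% lower in this comparison, with a median log2 change of -0.16.

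The other 5p arms gave no call: the log2 fold change was 0.30 for miR-23b-5p (SE 0.35, adjusted p = 0.457, edgeR) and -0.05 for miR-27b-5p (SE 0.14, adjusted p = 0.741). With at least a 2-fold change required as well, 2 of 6 members remained higher, miR-24-3p and miR-23b-3p, where 21.0% of all miRNAs did so. For the same members every library after hatch was above every library before it, which was so for 9.52% of the 252 miRNAs. By log2 fold change the ranks among 252 were 31 for miR-24-3p, 38 for miR-23b-3p, 55 for miR-27b-3p, 56 for miR-24-5p, 91 for miR-23b-5p and 118 for miR-27b-5p. Over all 6 stages, edgeR's F test called 5 of 6 members, all except miR-23b-5p, against 84.9% of all miRNAs. Of these, miR-27b-5p was no longer called without replicate 1 of 15EM (adjusted p = 0.0610) or replicate 3 of 15EM (0.102) or when blocked by replicate number (0.0629), and miR-24-5p without replicate 2 of 10WK (0.0613) or with library totals (0.0917). With clean reads, the scale described next, miR-24-5p (0.128) and miR-23b-3p (0.0743) lost this call and miR-23b-5p (0.0408) gained one.

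These changes are relative to the pool of miRNAs in each library. The share of that pool in the clean reads (the reads left after trimming and selection by length) differed between the periods. The counts on miRNAs were between 24.8% and 64.5% of the clean reads (median 58.7%) before hatch and between 11.5% and 32.5% (median 18.3%) after it. Scaled to clean reads in place of TMM, the median log2 change over the 252 miRNAs went from -0.16 to -1.78, and 0 of 6 members were called higher after hatch. The share of all miRNAs called on that scale is not given here, for this comparison or for the single steps. On that scale the log2 change was 0.38 for miR-24-3p (adjusted p = 0.0968, edgeR) and -0.08 for miR-23b-3p (adjusted p = 0.732), while miR-27b-3p fell by 0.66 (adjusted p = 0.00932). All 3 of the 5p arms fell, miR-27b-5p by 1.69, miR-23b-5p by 1.36 and miR-24-5p by 0.79 (adjusted p = 2.4e-06, 0.0059 and 0.0395). Per 1000000 clean reads, miR-27b-3p had a mean of 21064 ± 8418 (SD, n = 8) before and 13301 ± 5458 (n = 9) after hatch, and miR-24-3p 361 ± 208 and 422 ± 96.4. Whether the skin held less miRNA or more of other small RNA per cell, and whether fewer cells or less RNA per cell lies behind any level in bulk skin, cannot be told apart from these counts.

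**Figure D2:**
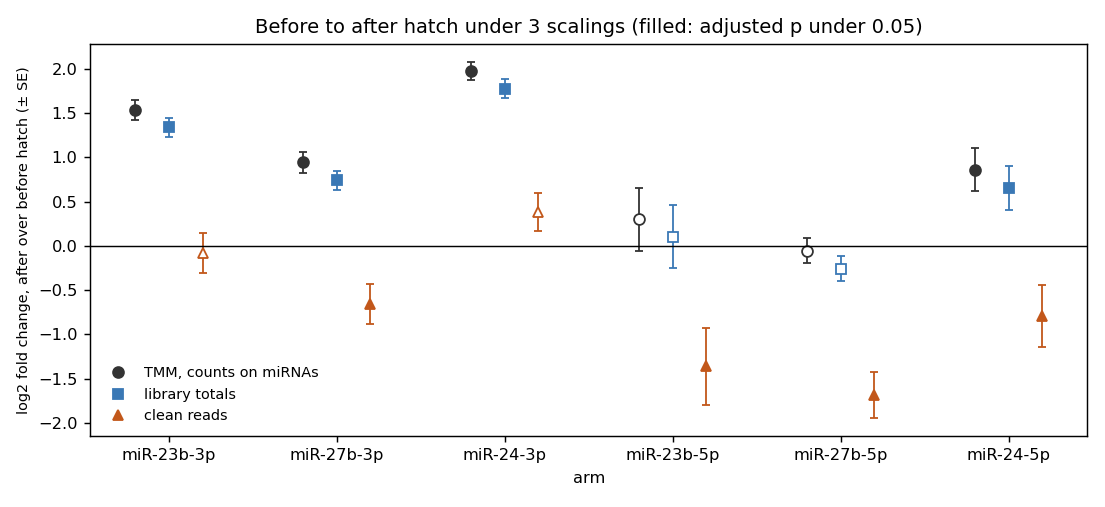
Log2 fold change from before to after hatch (vertical axis, with SE) for each arm under TMM, under library totals and under clean reads; filled symbols have an adjusted p under 0.05. With clean reads miR-27b-3p lies at -0.66 and miR-27b-5p at -1.69, below their TMM values of 0.94 and -0.05.

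The clean-read share of the raw reads split the libraries into 12 under 96% and 5 over 98%, here called run types. Neither the labels nor the methods name a sequencing run, so the term stands for this split alone, and its origin is not known. Within the 12 libraries of the type under 96% (4 before and 8 after hatch), the log2 changes were 2.02 for miR-24-3p, 1.38 for miR-23b-3p, 0.76 for miR-27b-3p and 0.88 for miR-24-5p, all called (adjusted p = 3.7e-07, 5.2e-06, 0.000763 and 0.0362, edgeR). They were -0.30 for miR-27b-5p (adjusted p = 0.107) and -0.25 for miR-23b-5p (adjusted p = 0.617). The median log2 change over the 248 miRNAs tested there was -0.19. The share of them called is not given here. The type over 98% held 1 library after hatch, too few for a value.

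Between successive stages, the 3p arms were called higher at 2 steps with TMM. From 11EM to 15EM, 4 of 6 members rose and 0 fell, where 19.4% of all miRNAs rose and 23.8% fell (1 of 6 by at least 2-fold, where 12.7% did): miR-24-3p by 1.63 on the log2 scale (SE 0.16, adjusted p = 3.6e-06), miR-27b-5p by 0.89 (SE 0.23, adjusted p = 0.00651), miR-27b-3p by 0.78 (SE 0.20, adjusted p = 0.00499) and miR-23b-3p by 0.64 (SE 0.18, adjusted p = 0.0110, all edgeR). Thus both arms of miR-27b rose at this step. Scaled to clean reads, only miR-24-3p was called (1.85, adjusted p = 0.000603), while miR-27b-3p (0.97, adjusted p = 0.0708), miR-27b-5p (1.08, adjusted p = 0.0715) and miR-23b-3p (0.82, adjusted p = 0.128) were not. The median log2 change over the 252 miRNAs on that scale was 0.045 at this step. The value of miR-23b-3p leaned on single libraries, as it was 0.49 without replicate 3 of 15EM (adjusted p = 0.0569) and 0.97 without replicate 3 of 11EM (adjusted p = 0.00103). miR-24-5p, at 0.62 (adjusted p = 0.221), was called only without replicate 3 of 11EM (1.29, adjusted p = 0.0182), and miR-23b-5p was at 0.25 (adjusted p = 0.724).

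From 20EM to 1DB, across hatch, 3 of 6 members rose and 0 fell, where 19.8% of all miRNAs rose and 24.2% fell (1 of 6 by at least 2-fold, where 11.5% did). Here miR-23b-3p led, with a rise of 1.43 (SE 0.21, adjusted p = 0.00011), followed by miR-24-3p with 0.93 (SE 0.18, adjusted p = 0.00115) and miR-27b-3p with 0.84 (SE 0.22, adjusted p = 0.00735). miR-27b-3p lost the call without replicate 1 of 20EM (0.83, adjusted p = 0.0530) and with limma (0.57, adjusted p = 0.0531). The 5p arm of miR-27b was at 0.06 (SE 0.26, adjusted p = 0.856, edgeR), so the arms that rose together from 11EM to 15EM did not both pass the test here. miR-24-5p and miR-23b-5p were at 0.59 and 0.76 (adjusted p = 0.303 and 0.368). The 3 members called at both steps were the 3p arms, among 13 of 252 miRNAs (5.16%) called higher at both. These steps share no stage, and at neither did a member fall at an unadjusted p under 0.05, with DESeq2 or with limma. Scaled to clean reads, no member was called from 20EM to 1DB, with miR-23b-3p at 0.50 (adjusted p = 0.353), miR-24-3p at 0.089 (adjusted p = 0.863) and miR-27b-3p at -0.087 (adjusted p = 0.868). On that scale the median log2 change over the 252 miRNAs was -0.93 at this step, below these 3p arms.

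At the remaining steps no member was called by edgeR with TMM. From 15EM to 20EM 0 of 6 passed in either direction, also at an unadjusted p under 0.05, with DESeq2 and with limma, where 7.14% of all miRNAs were called higher and 17.9% lower. From 1DB to 4WK, where 20.2% of all miRNAs were called higher and 14.3% lower, edgeR and DESeq2 called 0 of 6 and limma 1, with 1 member at an unadjusted p under 0.05. That member was miR-24-3p, at 0.41 on the log2 scale (SE 0.16, adjusted p = 0.0626, edgeR), which passed with limma (0.53, adjusted p = 0.0348), with library totals (0.53, adjusted p = 0.0239), without replicate 2 of 11EM (0.45, adjusted p = 0.0260) and without replicate 3 of 1DB (0.55, adjusted p = 0.0450). Its libraries at 4WK were all above those at 1DB in CPM, but with clean reads its log2 change was -0.36 (adjusted p = 0.430). The other 5 members had negative log2 changes there, between -0.20 for miR-23b-3p and -0.37 for miR-27b-5p. Within the run type under 96% miR-27b-3p (-0.60, adjusted p = 0.0437, edgeR) and miR-27b-5p (-0.68, adjusted p = 0.0403) were called lower, where the median of all tested miRNAs was -0.11. With clean reads miR-27b-3p was called lower too (-1.06, adjusted p = 0.0355, edgeR), where the median of all was -0.76. The shares of all miRNAs called lower under these settings are not given here. From 4WK to 10WK, where 1.19% of all miRNAs were called in each direction, all 3 tools called 0 of 6, with 1 member, miR-23b-3p, at an unadjusted p under 0.05 (log2 change 0.47, adjusted p = 0.141, edgeR).

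**Figure D3:**
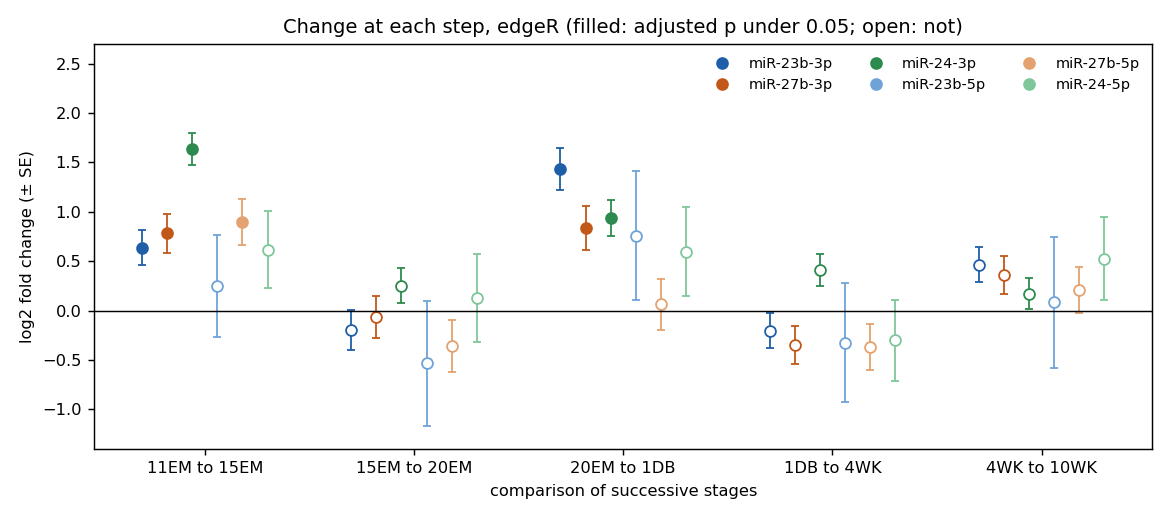
Log2 fold change of each arm (vertical axis, with SE) at each of the 5 steps between successive stages, from edgeR; filled points have an adjusted p under 0.05. Filled points appear only from 11EM to 15EM, led by miR-24-3p at 1.63, and from 20EM to 1DB, led by miR-23b-3p at 1.43.

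Whether the members rose by the same factor was tested on the ratio of 2 members within a library, which no scaling of the library can change. The 15 ratios were compared before and after hatch with an exact permutation test (two-sided, 24310 arrangements of the libraries, smallest possible p = 8.23e-05) and adjusted over the 15. The arrangements moved libraries freely across stages, so these p-values do not allow for differences between stages of the same period.

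The arms of miR-27b differed in their change over hatch. The log2 ratio of miR-27b-3p over miR-27b-5p was between 6.28 and 6.83 in the 8 libraries before hatch and between 7.32 and 7.75 in the 9 after it, so the groups did not overlap. Its mean went from 6.47 ± 0.171 (SD) to 7.48 ± 0.141, a difference of 1.01 (exact permutation test, p = 8.23e-05, adjusted p = 0.000309). This ratio was among those added after the data had been seen, so its p-value describes a difference already visible in the levels of both arms. By stage the means were 6.48, 6.35 and 6.66 at 11EM, 15EM and 20EM and 7.41, 7.46 and 7.58 at 1DB, 4WK and 10WK. Replicate 3 of 20EM, at 6.83, was the library before hatch nearest to those after it. Within the run type under 96% the difference was 1.03 (exact permutation test, adjusted p = 0.00606), and leaving out any 1 library gave 0.98 to 1.06. Both arms are counted under the same chicken hairpin, and what lies behind the change of this ratio was not tested.

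The 3p arms of the 3 hairpins also moved by unequal factors. miR-23b-3p relative to miR-27b-3p was between -6.47 and -6.07 on the log2 scale before hatch and between -5.94 and -5.44 after it, again without overlap, with a difference of 0.59 (exact permutation test, p = 8.23e-05, adjusted p = 0.000309). miR-24-3p relative to miR-27b-3p went from -6.01 ± 0.637 (SD, n = 8) to -4.90 ± 0.422 (n = 9), a difference of 1.10 (exact permutation test, p = 0.000494, adjusted p = 0.00106), with overlap between the periods. Within the run type under 96% these differences were 0.60 and 1.34 (exact permutation test, adjusted p = 0.00606 for each). Its stage mean was lowest at 11EM and went from -6.61 there through -5.77, -5.46 and -5.34 at 15EM, 20EM and 1DB to -4.59 and -4.78 at the last stages, 4WK and 10WK.

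Between miR-24-3p and miR-23b-3p the difference over hatch did not pass the test. Their log2 ratio was 0.29 ± 0.735 (SD, n = 8) before and 0.80 ± 0.309 (n = 9) after hatch, a difference of 0.51 (exact permutation test, p = 0.0782, adjusted p = 0.107), which passed without replicate 3 of 20EM (0.63, adjusted p = 0.0356) and was 0.74 (adjusted p = 0.0505) within the run type under 96%. Over the 6 stages the ratio did differ (permutation test of the F value with 100000 resamples, p = 0.00434, adjusted p = 0.0106), but not within the run type under 96% (permutation p = 0.0831, adjusted p = 0.125). In the order of age, its stage means were -0.44, 0.55, 0.98, 0.49, 1.10 and 0.81, so that miR-23b-3p was the more abundant of these arms only at 11EM, by stage mean.

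The arms of miR-24 parted as well, by 1.13 on the log2 scale (8.25 ± 0.723 before and 9.38 ± 0.428 after hatch, exact permutation test, p = 0.000411, adjusted p = 0.00103), with few counts on the 5p arm. The ratio of miR-27b-3p over miR-24-5p gave a difference of 0.02 (adjusted p = 0.906), the smallest of the 15. In all, 10 of the 15 ratios passed, 4 of them with miR-27b-5p. The 15 ratios share 6 members and are not independent of each other. How often ratios of other miRNAs would pass is not given here, and 34.1% of all miRNAs were called higher and 42.9% lower over hatch. The largest differences of the 15 were those of miR-24-3p and miR-23b-3p over miR-27b-5p, at 2.11 and 1.60 (exact permutation test, adjusted p = 0.000309 for each), both without overlap between the periods. Both were also among the ratios added after the data had been seen. Of the 10, miR-23b-3p over miR-24-5p (0.61, adjusted p = 0.00648) was no longer past the threshold within the run type under 96% (0.43, adjusted p = 0.154).

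**Figure D4:**
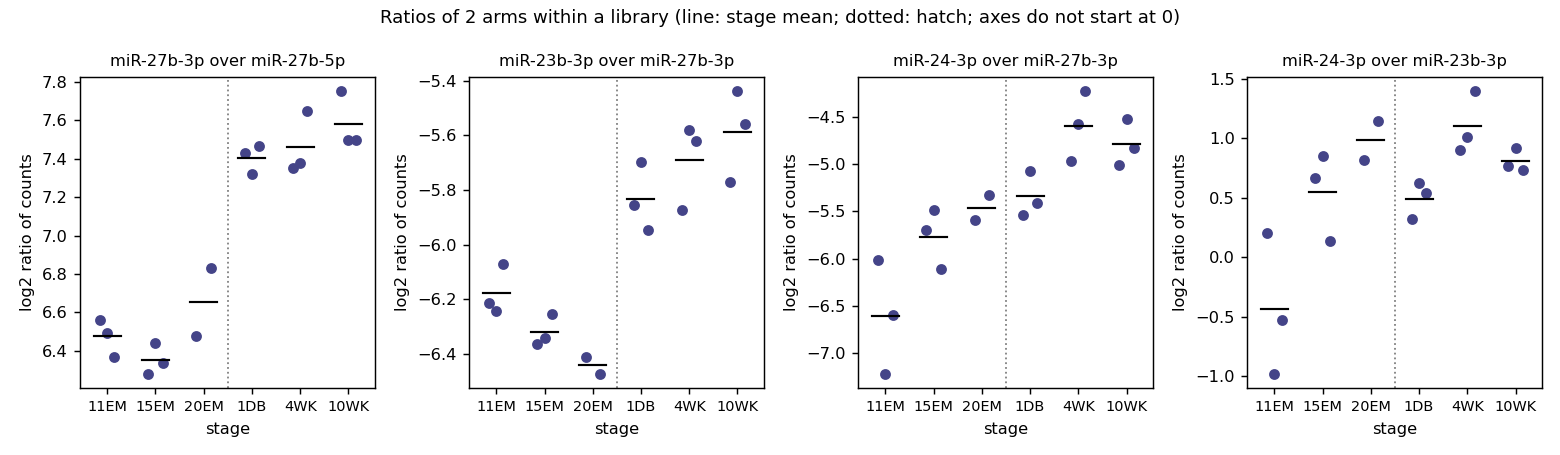
Log2 ratio of the counts of 2 arms within a library (vertical axes, not from 0) by stage for 4 pairs; points are libraries, the line is the stage mean and the dotted line marks hatch. In the panel of the miR-27b arms the libraries after hatch begin at 7.32, above the highest before hatch at 6.83.

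Libraries of the same stage were then compared with each other, through the deviation of each library from its stage mean in log2 TMM-normalized CPM. Over the 17 libraries, miR-23b-3p and miR-27b-3p deviated together (Pearson's r = 0.873, permutation p = 0.00598, adjusted p = 0.0154, Spearman's rho = 0.846, permutation p = 0.00463), with 15552 arrangements within stages and adjustment over 18 correlations. So did miR-27b-5p with miR-23b-3p (r = 0.882, permutation p = 0.000322, adjusted p = 0.00289, rho = 0.936, permutation p = 0.000193) and with miR-27b-3p (r = 0.888, permutation p = 0.00129, adjusted p = 0.00386, rho = 0.890, permutation p = 0.00167). Thus the arm that did not rise with miR-27b-3p over hatch followed it from library to library within a stage. No r within stages is given here for other pairs of miRNAs, so whether this is particular to these arms was not tested. Without the 2 libraries farthest from the median, r was 0.837, 0.821 and 0.831 for these 3 pairs. Within the run type under 96% (10 libraries of 4 stages, 144 arrangements, chosen after the data had been seen), r was 0.910, 0.974 and 0.904 (permutation p = 0.0347, 0.0208 and 0.0278).

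For the deviations of miR-24-3p no relation passed the test. They gave r = -0.356 with miR-23b-3p, -0.392 with miR-27b-3p and -0.488 with miR-27b-5p (permutation p = 0.482, 0.330 and 0.187, adjusted p = 0.510, 0.396 and 0.259), and rho was -0.333, -0.341 and -0.429 (permutation p = 0.341, 0.309 and 0.204). Among the 3 libraries of 11EM, for example, replicate 1 was lowest for miR-23b-3p, miR-27b-3p and miR-27b-5p, whereas miR-24-3p was lowest in replicate 2. The other 12 correlations of the family are of levels within a period. Before hatch the libraries of 11EM lay apart from the others for all 4 arms. There r does not separate that difference from likeness within a stage. With this limit, miR-24-3p gave r of 0.655 with miR-23b-3p, 0.787 with miR-27b-3p and 0.662 with miR-27b-5p. The adjusted permutation p were 0.0973, 0.0345 and 0.108, and rho was 0.476, 0.595 and 0.452. For miR-23b-3p with miR-27b-3p, miR-23b-3p with miR-27b-5p and miR-27b-3p with miR-27b-5p, r was 0.966, 0.969 and 0.944. After hatch, as before it, the arrangements moved libraries freely across stages. These p-values therefore do not separate differences between stages from those within a stage. In CPM the oldest stage lay apart for miR-23b-3p and the youngest stage after hatch for miR-24-3p. The stages of miR-27b-3p and of miR-27b-5p overlapped after hatch. Over the 9 libraries after hatch, miR-23b-3p with miR-27b-3p (r = 0.793, permutation p = 0.0133, adjusted p = 0.0298, rho = 0.650, permutation p = 0.0661) and miR-27b-3p with miR-27b-5p (r = 0.877, permutation p = 0.000730, adjusted p = 0.00386, rho = 0.883, permutation p = 0.00315) passed, with r of 0.529 and 0.719 without the 2 libraries farthest from the median. There miR-24-3p gave r of 0.308 with miR-23b-3p, -0.125 with miR-27b-3p and -0.399 with miR-27b-5p (adjusted permutation p = 0.463, 0.744 and 0.377, rho = 0.300, -0.350 and -0.500).

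**Figure D5:**
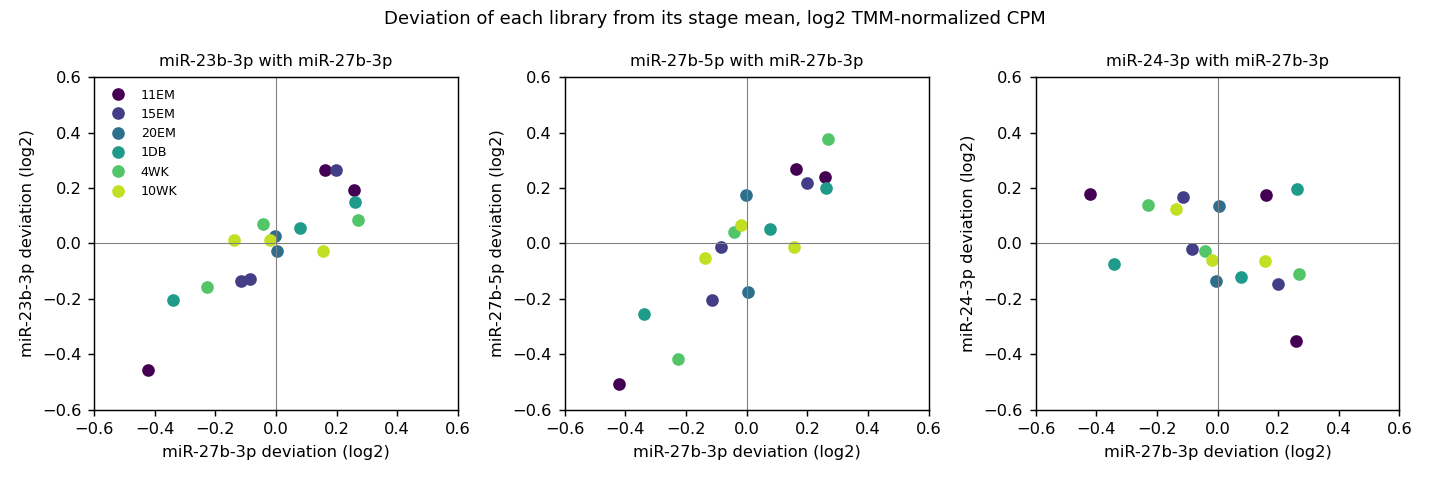
Deviation of each library from its stage mean (both axes, log2 TMM-normalized CPM) for miR-23b-3p, miR-27b-5p and miR-24-3p against miR-27b-3p; colours are stages. The first 2 panels run along a rising line (r = 0.873 and 0.888), and the third has no such line (r = -0.392).

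Likeness in level over all 17 libraries was given by Pearson's r of log2 TMM-normalized CPM among 181 miRNAs, as a description, since the libraries share stages. miR-23b-3p and miR-27b-3p were each other's nearest (r = 0.949). Next came miR-451 (0.936) and let-7k-5p (0.934) for miR-23b-3p, and let-7j-5p (0.913) and let-7a-5p (0.912) for miR-27b-3p. miR-24-3p was nearest to let-7b (0.961), let-7j-3p (0.942) and let-7a-5p (0.936), with miR-23b-3p at place 11 (0.905) and miR-27b-3p at place 14 (0.877). In the other direction, miR-24-3p was at place 9 for miR-23b-3p and at place 5 for miR-27b-3p. For miR-27b-5p the nearest were let-7f-5p (0.677), miR-146c-3p (0.647) and miR-16c-5p (0.626), with its partner arm at place 9 (0.499). Over the 6 stage means, miR-23b-3p was at place 3 for miR-27b-3p (0.960), and miR-27b-3p at place 7 for miR-23b-3p. There miR-24-3p was at place 5 for miR-27b-3p (0.956) and at place 14 for miR-23b-3p (0.934). For miR-24-3p, miR-27b-3p was at place 6 and miR-23b-3p at place 11.

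miR-128-3p, which holds the shifted seed of miR-27b-3p, was lower late in the series. Its mean level was 6703 CPM ± 298 (SD, n = 3) at 11EM and 2108 CPM ± 89.1 (n = 3) at 10WK. It fell by 0.62 on the log2 scale from before to after hatch (SE 0.07, adjusted p = 2.4e-06, edgeR), but it rose by 0.52 from 20EM to 1DB (SE 0.14, adjusted p = 0.00827).

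Other miRNAs with known roles in the vessel wall or in matrix and growth factor signaling were counted from a list of 12, of which 10 were listed and tested. The list was chosen with earlier results of these data known, so its counts and median are a description and not a test. From before to after hatch 7 rose and 3 fell, with a median log2 change of 0.87 against -0.16 over all miRNAs. The endothelial miR-126-3p and miR-126-5p rose by 0.58 and 0.73, miR-221-3p by 1.00, and miR-21-5p, common in wound and matrix responses, by 1.25. The miR-29 family, which lowers collagen messages, rose by 4.64 (miR-29a-3p, SE 0.21), 4.94 (miR-29b-3p, SE 0.30) and 4.08 (miR-29c-3p, SE 0.20). These 3 started from low means before hatch, 11.1, 1.41 and 7.08 CPM. miR-222a, miR-130a-3p and miR-218-5p fell by 0.91, 1.53 and 0.61. From 11EM to 15EM, where the 3p arms rose, 3 of the 10 rose and 3 fell, and from 20EM to 1DB 5 rose and 1 fell. At the steps where no member was called, 5 rose and 1 fell from 15EM to 20EM, 4 rose and 3 fell from 1DB to 4WK, and 0 rose and 1 fell from 4WK to 10WK. The shares of all miRNAs called in each of these comparisons are those given with the members.

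Markers of cell types in skin moved with the stages too. From before to after hatch, 34.1% of all miRNAs were called higher and 42.9% lower, beside which the marker calls stand. The summed level of the endothelial pair was between 11290 and 24639 CPM before and between 19487 and 31093 CPM after hatch, with both called higher. Red blood cell miRNAs (3 of 3 listed, 1 called higher and 1 lower) went from a range of 1830 to 4289 CPM to one of 9382 to 21235 CPM, leukocyte miRNAs (4 of 5 listed, 3 higher) from 448 to 742 to 1014 to 9308 CPM, and mesenchymal miRNAs (3 of 3 listed, all lower) from 20754 to 45312 to 12628 to 22887 CPM. Of the red blood cell miRNAs, miR-451 rose by 2.77 (adjusted p = 2.4e-08, edgeR), miR-144-3p fell by 0.41 (adjusted p = 0.0480) and miR-144-5p was not called (0.22, adjusted p = 0.718). Epithelial miRNAs were present in every library (6 of 7 listed, 1 higher and 2 lower). Their sum was between 21955 and 118963 CPM before and between 36358 and 87433 CPM after hatch. Skeletal muscle miRNAs (7 of 7 listed, 2 higher and 1 lower) ranged from 453 to 14073 and from 5200 to 15005 CPM, and the cartilage pair, both higher, from 3448 to 19596 and from 8743 to 13086 CPM. From 11EM to 15EM, where all the 3p arms rose, the endothelial sum went from between 13495 and 23324 to between 11290 and 14416 CPM, the epithelial sum from between 21955 and 44825 to between 87970 and 118963 CPM, the muscle sum from between 7343 and 14073 to between 453 and 3878 CPM, and the mesenchymal sum from between 32268 and 45312 to between 21447 and 26237 CPM. The cartilage sum went from between 3715 and 19596 to between 3448 and 3635 CPM. The endothelial, red blood cell and leukocyte sums overlapped between these stages. From 20EM to 1DB, where these arms rose again, the epithelial sum went from between 77286 and 86077 to between 36358 and 47689 CPM and the mesenchymal sums overlapped. The other sums were all higher at 1DB, the endothelial from at most 24639 to at least 27151 CPM, red blood cell from 4289 to 9382, muscle from 6026 to 9073, leukocyte from 678 to 1014 and cartilage from 4585 to 12314 CPM. At this step 19.8% of all miRNAs were called higher and 24.2% lower. Of the endothelial pair edgeR called miR-126-5p (0.63, adjusted p = 0.0203) but not miR-126-3p (0.41, adjusted p = 0.186). Of the cartilage pair it called miR-140-3p (1.77, adjusted p = 0.0098) but not miR-140-5p (1.32, adjusted p = 0.0856). Nor did it call the leukocyte miR-142-3p and miR-142-5p or the muscle miR-1a-3p, miR-133a-3p, miR-133b and miR-133c-3p. Among the red blood cell miRNAs, neither miR-144-3p nor miR-144-5p was called at this step. Their log2 changes were -0.21 and 0.83 (adjusted p = 0.656 and 0.529, edgeR). The share of all miRNAs whose libraries did not overlap between successive stages is not given here. No listed marker was at 0 in every library, and miR-141-3p, miR-150-5p and both markers of vessel smooth muscle were not among the names listed. The part of any cell type in the members' levels was not tested.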

How the data were processed

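Total RNA of duck skin was enriched for small RNA, which was sequenced on an Illumina platform. The authors trimmed adapters and poly(A), dropped reads shorter than 18 nt, removed reads that fit other noncoding RNA at up to 2 mismatches and searched the rest against chicken miRNAs of miRBase 21, with annotation in CLC Genomics Workbench 5.5. The mismatches allowed against miRBase are not given in the sources used here. They deposited raw counts per arm and hairpin, without normalization. Counts were summed per name; CPM divide by the summed counts on miRNAs. The 17 libraries held 3072942 to 15839714 counts. Matching to chicken sequences can miss duck bases that differ, and no genome build was used here.

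One fit of 6 stages was made with edgeR 4.0.16 in R 4.3.3 (TMM, quasi-likelihood, Benjamini-Hochberg within each comparison, at least 1 CPM in at least 2 libraries, 252 miRNAs); called means an adjusted p under 0.05. SEs come from the fold change and F. Alternatives were DESeq2 1.42.0, limma 3.58.1 on log2 CPM (0 set to 0.01), library totals, the study's clean reads, no filter, at least 10 CPM in 3 libraries, replicate block, run type, the compared stages alone and each library left out. Ratios and correlations used scipy 1.17.1, numpy 2.4.6 and pandas 2.3.3 (python 3.11.15), with figures by matplotlib 3.10.9. Intervals cover counting error only. The fits were also run on simulated counts with no change or with changes placed at 10WK, scored from 4WK to 10WK only. The other comparisons, the ratios and the correlations were not simulated.

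The members and lists were chosen with earlier results of these data known. The names described are all 6 that the name pattern gives, the 3 miRNAs most like each member with at least 10 CPM, and those sharing a seed or on the vessel and matrix list. A list of 4 members stood at the outset; with 6 found, the 9 ratios holding miR-23b-5p or miR-27b-5p were added after the data had been seen. Replicate numbers did not pair the libraries.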

Additional observations from a re-analysis of the deposited data

How the results depend on the processing

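Scaling by clean reads changed most: the log2 change from before to after hatch became -0.083 for miR-23b-3p, -1.36 for miR-23b-5p, -0.66 for miR-27b-3p, -1.69 for miR-27b-5p, 0.38 for miR-24-3p and -0.79 for miR-24-5p, and the members called higher became 0 before to after hatch, 1 from 11EM to 15EM and 0 across hatch (20EM to 1DB). On that scale the step from 15EM to 20EM was -0.33 for miR-24-3p and -0.32 for miR-24-5p, that from 20EM to 1DB -0.34 for miR-23b-5p, -0.087 for miR-27b-3p, -0.93 for miR-27b-5p and -0.38 for miR-24-5p, and that from 1DB to 4WK -0.36 for miR-24-3p. The median over the 252 miRNAs at these 3 steps was -0.72, -0.93 and -0.76. The cause of each change was not tested beyond the shift of the median given with the clean reads. Requiring a 2-fold change left 2, 1 and 1 members in those 3 comparisons. limma and library totals each called 1 member higher from 1DB to 4WK. Near 0, the change of miR-27b-5p over hatch was 0.060 with DESeq2 and 0.053 with the stricter filter, and that of miR-23b-5p was -0.25 within the run type under 96%. From 15EM to 20EM, miR-27b-3p was 0.052 with DESeq2, 0.052 without a filter, 0.15 with the stricter filter and 0.084 with the compared stages alone, and miR-23b-3p 0.026 with the stricter filter. From 20EM to 1DB, miR-27b-5p was -0.18 with limma, -0.20 with library totals, -0.081 without a filter, -0.14 within the run type and -0.0087 with the compared stages alone. From 4WK to 10WK, miR-23b-5p was -0.042 with library totals, -0.028 without a filter and -0.15 with run type as a covariate. Within the run type, the ratio difference was -0.17 for miR-27b-3p over miR-24-5p and 0.19 for miR-27b-5p over miR-23b-5p.

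Leaving out each library in turn gave, before to after hatch, -0.12 to 0.12 for miR-27b-5p, 0.33 to 0.63 for the ratio of miR-24-3p over miR-23b-3p and -0.070 to 0.12 for that of miR-27b-3p over miR-24-5p, and 0 to 1 members higher from 1DB to 4WK. The range was -0.16 to 0.79, -0.67 to 0.10 and -0.38 to 0.36 for miR-23b-5p from 11EM to 15EM, 1DB to 4WK and 4WK to 10WK, -0.14 to 0.31 for miR-24-5p and -0.12 to 0.11 for miR-27b-3p from 15EM to 20EM, and -0.10 to 0.25 and -0.058 to 0.42 for miR-27b-5p from 20EM to 1DB and 4WK to 10WK.

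With the replicate number as a block, miR-27b-5p lost its call over 6 stages (adjusted p = 0.0629), and the members called higher stayed at 4 before to after hatch. Same-numbered libraries had a mean correlation of residuals of -0.03 over 40 pairs, and differently numbered ones 0.02 over 80. At 1 to 34 counts, the depth limits what can be said of miR-23b-5p and miR-24-5p.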
